A study of Rattus norvegicus with 8 samples.

Results

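Ccl2 and Ccl7 are neighbouring chemokine genes whose transcripts were both far more abundant in rat hippocampal neuronal cultures given a positive allosteric modulator (PAM) of NMDA-type glutamate receptors than in vehicle-treated cultures. They are 2 of the 32623 annotated genes in the count tables and were found by their symbols in the authors' deposited table, joined by Ensembl identifier to the counts. Both were picked with their difference between PAM and vehicle already known, so that difference is given as a description and is not tested. Polyadenylated RNA was sequenced from wild-type SD rat hippocampal cultures on day 18 in vitro, in 4 libraries labelled PAM and 4 labelled vehicle. Such a compound does not open the receptor channel by itself but enlarges the current that glutamate evokes. Compound, dose, treatment length and cell composition were not given in the sources used here, and nothing in the labels says that libraries of a group came from separate cultures. The p-values below therefore reflect only the spread between these libraries, and that spread may be technical. Libraries held 2960406 to 4389430 gene counts, and 11740 genes passed the low-count filter, both members of the pair among them.

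Chemokines are small secreted proteins that direct the movement of leukocytes by binding G-protein-coupled receptors. CCL2 (monocyte chemoattractant protein MCP-1) and CCL7 (MCP-3) belong to the monocyte chemoattractant group of CC chemokines. CCL2 signals mainly through the receptor CCR2, whereas CCL7 can bind several CC receptors, CCR2 included. In the brain, astrocytes, microglia, endothelial cells and some neurons can make CCL2, and its transcript is known to be induced by inflammatory cytokines through NF-kB and AP-1.

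The pair lies on the plus strand of chromosome 10 in the build of the count tables, Rnor_6.0. Ccl2 (ENSRNOG00000007159) spans 69412017 to 69413870 with 3 exons of 199, 118 and 518 bases. Ccl7 (ENSRNOG00000000239) spans 69423086 to 69424979, also with 3 exons, of 161, 112 and 577 bases. Thus the genes share an exon layout and nearly the same exonic length, 835 and 850 bases, and 9215 bases separate the end of Ccl2 from the start of Ccl7. No other annotated gene overlapped either span. The 250 bases before the start of Ccl7 are shown, because both genes were higher in the same libraries and core promoter motifs usually lie there. The sequence is from RefSeq on assembly GRCr8, chr10:67513845-67514094, plus strand, and it was found for 1 of the 2 genes. Capitals mark, from left to right, an AP-1 match, an NF-kB consensus match on the minus strand and a TATA box.

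Ccl7: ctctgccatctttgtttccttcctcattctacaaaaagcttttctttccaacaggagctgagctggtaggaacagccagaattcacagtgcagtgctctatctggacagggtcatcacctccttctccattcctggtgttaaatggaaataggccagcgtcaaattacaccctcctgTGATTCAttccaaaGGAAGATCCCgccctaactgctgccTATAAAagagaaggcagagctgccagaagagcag

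The TATA box (searched as TATAAA) lay 34 to 29 bases before the start, the NF-kB consensus match 59 to 50 bases before it and the AP-1 match (searched as TGANTCA) 73 to 67 bases before it. No motif in the window overlapped another. Among the 33469 RefSeq stretches of the same length, searched on both strands, 12.9% held a TATA box, 6.34% an AP-1 match and 4.24% an NF-kB consensus match. Among the 29 such stretches of listed chemokine ligands the numbers were 10, 4 and 7. A CRE (TGACGTCA), a C/EBP motif (TTGCNNAA), a STAT motif (TTCNNNGAA), an IRF motif and a CArG box had no match in the window; 1.59%, 9.22%, 7.67%, 3.41% and 1.5% of the same stretches held them. A match describes letters and is no evidence of binding.

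Ccl2 was measured at 36.9, 38.0, 26.9 and 40.4 CPM (the read count scaled to library size with TMM factors) in vehicle 1 to 4. In PAM 1 to 4 its level reached 297.6, 231.6, 277.9 and 257.8 CPM. The groups were far apart: the lowest PAM library was 5.73 times the highest vehicle library. Behind these values stood 86 to 138 raw counts in each vehicle library and 715 to 1291 in each PAM library. Group means were 35.6 ± 5.95 CPM in vehicle and 266.2 ± 28.2 CPM in PAM (SD, n = 4 each), a 7.49-fold difference, and the log2 fold change was 2.90 ± 0.14 (SE, edgeR). The authors' deposited table gives group means of 124.3 and 929.3 normalized counts and a log2 fold change of 2.90 for Ccl2.

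Ccl7 was less abundant, at 12.8, 11.01, 8.45 and 7.76 CPM in vehicle 1 to 4. In PAM 1 to 4 it was at 71.5, 51.4, 65.98 and 42.9 CPM. Again the groups did not overlap, with the lowest PAM library at 3.35 times the highest vehicle library. Raw counts were 24 to 42 in each vehicle library and 119 to 310 in each PAM library. The means were 10.01 ± 2.33 and 57.9 ± 13.1 CPM (SD, n = 4 each), a 5.79-fold difference, and the log2 fold change was 2.53 ± 0.22 (SE, edgeR). In the authors' deposited table Ccl7 has a log2 fold change of 2.53. All PAM libraries lay above all vehicle libraries for 10.3% of the tested genes, and nothing is read from this for the pair, which was picked by the same contrast.

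**Figure D1:**
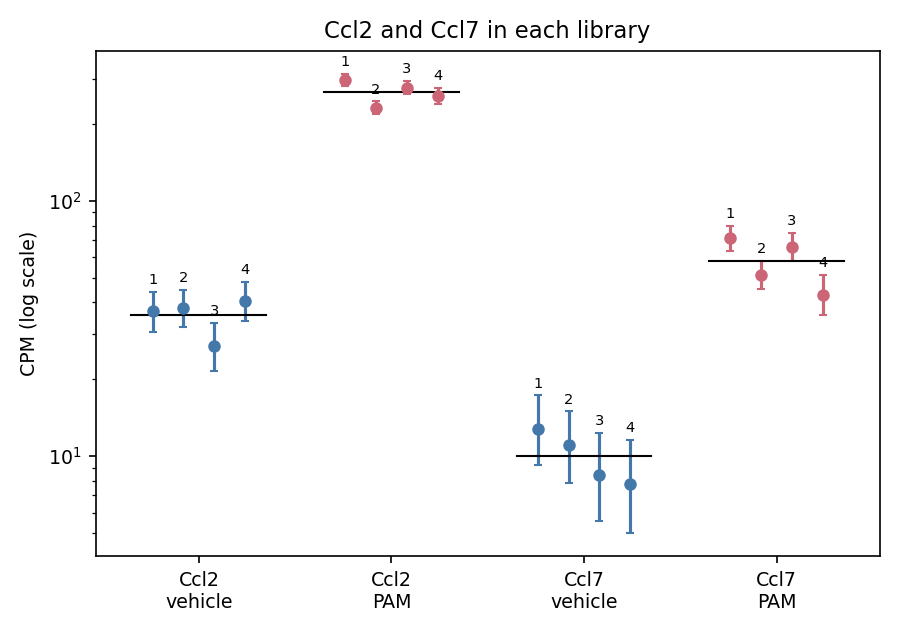
Level of Ccl2 and Ccl7 in each library in CPM on a log axis, vehicle in blue and PAM in red, with the replicate number above each point, exact Poisson 95% intervals (counting error only) as bars and group means as black lines. Ccl2 sits at 26.9 to 40.4 CPM in vehicle and 231.6 to 297.6 CPM in PAM, and Ccl7 at 7.76 to 12.8 and 42.9 to 71.5 CPM.

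Libraries of 1 group varied more than counting error alone allows for Ccl2 with PAM, where the coefficient of variation was 10.6% against 3.12% from counting. For Ccl2 in vehicle it was 16.7% against 9.23%. Ccl7 varied by 23.3% in vehicle, where counting error alone gives 17.3%, and by 22.6% against 6.63% in PAM. Ccl7 was thus the more variable gene, and its low vehicle counts limit its precision. Vehicle 3 was the lowest vehicle library for Ccl2, whereas vehicle 4 was lowest for Ccl7. With PAM, PAM 1 was highest for both genes, PAM 2 lowest for Ccl2 and PAM 4 lowest for Ccl7. Over the 8 libraries the deviations of the genes from their group means in log2 CPM had a Pearson correlation of 0.41, a description of points that share libraries and depth.

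Per base of exon the genes also differed in level. Ccl2 was at 42.6 ± 7.12 RPKM (CPM per kilobase of exon; SD, n = 4) in vehicle and 318.8 ± 33.8 RPKM in PAM, and Ccl7 at 11.8 ± 2.74 and 68.2 ± 15.4 RPKM. Ccl2 exceeded Ccl7 per length in every library, by 2.93, 3.51, 3.24 and 5.30 times in vehicle 1 to 4 and by 4.24, 4.59, 4.29 and 6.12 times in PAM 1 to 4. The ratio overlapped between the groups, at 3.75 ± 1.06 in vehicle and 4.81 ± 0.89 in PAM (SD, n = 4). Of the summed counts of both genes, Ccl7 held 16.1% to 25.8% in vehicle and 14.3% to 19.4% in PAM libraries. The exact Clopper-Pearson 95% interval, which covers counting error only, was 10.6% to 23.0% for vehicle 4 and 11.97% to 16.8% for PAM 4, the lowest library of each group. The ratio was highest in vehicle 4 and PAM 4, and without them its mean was 3.23 in vehicle and 4.37 in PAM.

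Within the ranking of all 11740 tested genes by RPKM, Ccl2 stood at places 1969 to 2863 in vehicle and 223 to 331 in PAM libraries. Ccl7 moved from places 4964 to 6500 to places 1093 to 2012. Among the 9049 tested genes with a mean of at least 10 CPM, Ccl2 had the largest log2 fold change and Ccl7 the 3rd largest. By gain in CPM, which favours abundant genes, Ccl2 with 230.6 CPM stood at place 39 of all tested genes and Ccl7 with 47.9 CPM at place 304. These places follow from the contrast by which the pair was picked.

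Both genes are short, and PAM 3 and PAM 4 held fewer counts of long genes, with slopes of -0.0853 and -0.132 log2 units for each doubling of exonic length and slopes of 0.00524 to 0.0627 in the other libraries. Among the 916 tested genes of 600 to 1100 exonic bases the median log2 fold change was 0.17, against 0.02 over all tested genes. Of these short genes 14.1% were called higher with PAM, against 9.0% of all tested genes. With each library's length trend removed, the log2 fold change was 2.74 for Ccl2 and 2.37 for Ccl7. Without both of these libraries it was 2.90 and 2.62.

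The next comparison asks whether the pair's relatives among chemokine ligands and receptors differed too. Of the other 35 listed ligands, 11 carried a symbol in the deposited table and 6 of these passed the low-count filter; the remaining 24 are not analysed here. Cxcl14 and Cxcl16 rose and Cx3cl1 fell (edgeR's quasi-likelihood F test, threshold 0.05 on the p adjusted after Benjamini and Hochberg, BH, over all tested genes), against 9.0% of all tested genes called higher and 9.89% called lower. The median log2 fold change of the 6 was 0.14. The tested ligand with the next largest log2 fold change after the pair was Cxcl16, at 1.12.

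Cxcl14, a chemokine made constitutively in many epithelia and in some interneurons, was at 161.6, 195.7, 207.6 and 174.1 CPM in vehicle 1 to 4 and at 264.8, 234.8, 269.4 and 337.8 CPM in PAM 1 to 4. Its groups did not overlap, and the log2 fold change was 0.58 ± 0.12 (SE; edgeR, BH adjusted p = 0.00253). Cx3cl1 encodes fractalkine, a membrane-bound chemokine of neurons whose receptor sits on microglia. It ran from 385.1 to 448.4 CPM in vehicle and from 321.6 to 370.4 CPM in PAM libraries, all PAM libraries below all vehicle libraries, with a log2 fold change of -0.31 ± 0.10 (edgeR, BH adjusted p = 0.0359). Leaving out vehicle 2, 3 or 4 or PAM 1 or 2 ended this call (edgeR, BH adjusted p 0.0288 to 0.127 over the 8 fits with 1 library left out), as did removal of the length trend (0.0849). Cxcl16, a transmembrane chemokine for CXCR6, went from 5.60 ± 2.16 to 12.1 CPM with overlapping groups (log2 fold change 1.12 ± 0.37; edgeR, BH adjusted p = 0.0393). Leaving out vehicle 1, 3 or 4 or PAM 1, 2 or 3 ended its call (edgeR, BH adjusted p 0.00369 to 0.124), as did limma-voom (0.0565). An exon of Cxcl16 overlaps the opposite-strand gene Zmynd15, which held 37 counts in all.

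The other tested ligands did not pass. Cxcl12, which attracts cells carrying CXCR4, was at 7.44 to 18.3 CPM in vehicle and 11.5 to 37.8 CPM in PAM libraries (log2 fold change 0.94 ± 0.33; edgeR, BH adjusted p = 0.0515). It passed when vehicle 1, PAM 2 or PAM 4 was left out (edgeR, BH adjusted p 0.0045 to 0.233 over the 8 fits), with DESeq2 (0.0365), with upper-quartile scaling (0.0467), with no low-count filter (0.00355), with the length trend removed (0.0209) and without PAM 3 and PAM 4 (0.000547). Cxcl1, a neutrophil chemokine that is often induced together with Ccl2, had a log2 fold change of -0.76 ± 0.59 from a vehicle mean of 4.93 CPM and a PAM mean of 2.80 CPM, and its groups overlapped. Ccl27 had a log2 fold change of -0.46 ± 0.30, with an exon overlapping the opposite-strand receptor gene Il11ra1, which held 1037 counts. The log2 fold change of Ccl27 was -1.20 without PAM 3 and PAM 4 (edgeR, BH adjusted p = 0.000961).

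The pair's part of chemokine ligand transcript was computed per length over the 13 of 37 listed ligands that had a symbol. Because the pair was picked for its difference, a larger part with PAM was given beforehand, and nothing is read from it. Together Ccl2 and Ccl7 made up 18.7%, 16.2%, 11.5% and 16.8% of summed ligand RPKM in vehicle 1 to 4. With PAM they made up 58.4%, 54.3%, 54.5% and 50.5%. The other 11 ligands summed to 257.9 to 326.2 RPKM in vehicle and 284.0 to 351.5 RPKM in PAM libraries, ranges that overlap. Ccl2 was the 3rd or 4th most abundant of the 13 ligands in vehicle libraries, behind Cx3cl1 and Cxcl14 and in vehicle 3 also Ccl27, and the most abundant in each PAM library. Ccl7 was at places 5 to 6 in vehicle and at place 4 in all PAM libraries.

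**Figure D2:**
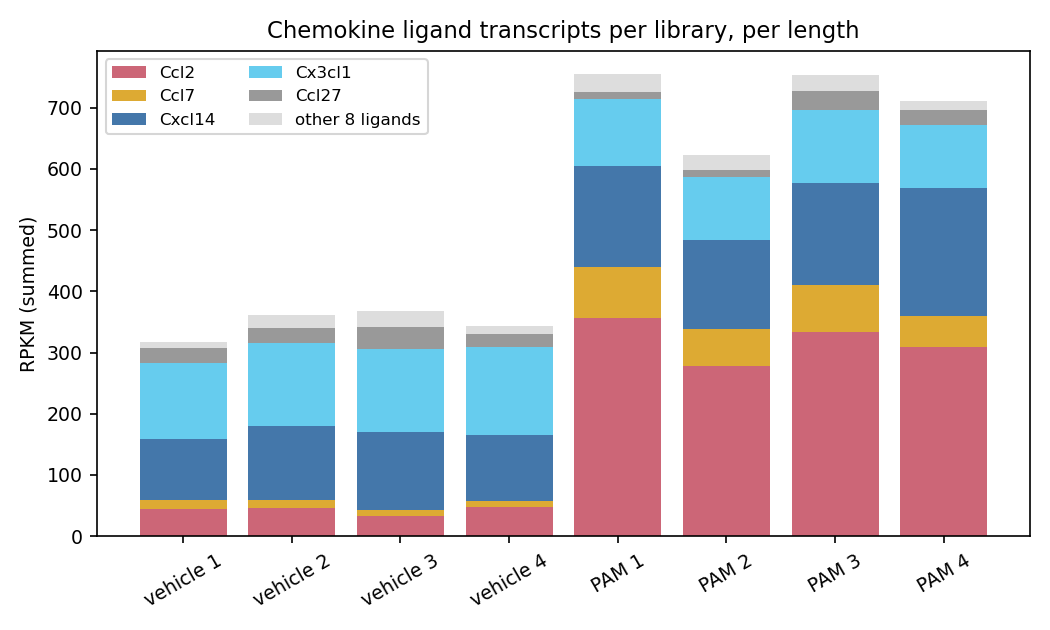
Summed RPKM of 13 chemokine ligands in each library, stacked by gene, with 8 further ligands pooled in light grey. The Ccl2 and Ccl7 blocks together take 11.5% to 18.7% of the bar in vehicle and 50.5% to 58.4% in PAM libraries, while the blocks of Cxcl14 and Cx3cl1 change far less.

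Few receptors could be matched. Of 23 listed chemokine receptors 3 had a symbol in the deposited table, and CCR2, the main receptor of CCL2, was not among them and is not analysed here. Cxcr4, the receptor for CXCL12, was at 15.5, 11.8, 17.2 and 15.2 CPM in vehicle 1 to 4 and at 30.4, 30.9, 30.1 and 35.7 CPM in PAM 1 to 4. It rose with groups that did not overlap (log2 fold change 1.09 ± 0.19; edgeR, BH adjusted p = 0.000598) and held its call in every edgeR fit with 1 library left out. Ackr3, a scavenging receptor for CXCL12, did not pass (log2 fold change -0.41 ± 0.66), and at 0 to 5.53 CPM its direction turned to 0.24 without PAM 3 and PAM 4.

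Genes upstream of the pair were read from lists of cytokines, receptors and transcription factors known to act on Ccl2. Of 13 tested cytokines and receptors, 2 rose and the others did not pass, with a median log2 fold change of 0.11 (-0.03 to 0.22 with 1 library left out). Over all tested genes 9.0% were called higher and 9.89% lower, and the median log2 fold change was 0.02. Tnfrsf1a, the main TNF receptor, went from 80.8 ± 7.07 to 125.7 CPM (log2 fold change 0.64 ± 0.12; edgeR, BH adjusted p = 0.00103). Il17ra, an interleukin 17 receptor subunit, went from 9.33 ± 0.86 to 19.1 CPM (log2 fold change 1.03 ± 0.23; edgeR, BH adjusted p = 0.00368). Both kept their calls in every edgeR fit with 1 library left out. The listed inducers Tnf, Il1a, Il1b, Il6 and Ifng carried no symbol in the deposited table and are not analysed here. Il33, an alarmin, was measured at means of 49.4 (vehicle) and 61.8 (PAM) CPM and did not pass, except without PAM 3 and PAM 4 (edgeR, BH adjusted p = 0.0152).

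Of 19 tested NF-kB pathway genes and targets 4 rose (Vcam1, Nfkbia, Ikbkb and Map3k14) and 15 did not pass, and the median log2 fold change was 0.28. For comparison, 9.0% of all tested genes were called higher, and their median log2 fold change was 0.02. Vcam1, an adhesion molecule for leukocytes, had a log2 fold change of 0.64 ± 0.17 (edgeR, BH adjusted p = 0.0104) and kept its call in all fits with 1 library left out. Nfkbia, the inhibitor that NF-kB induces against itself, went from 38.6 ± 4.29 to 55.3 CPM (log2 fold change 0.52 ± 0.15; edgeR, BH adjusted p = 0.021). Omission of 1 library often ended the calls. For Nfkbia this was so for vehicle 2, 3 and 4 and PAM 1 (edgeR, BH adjusted p 0.0137 to 0.0778). For Ikbkb it was so for each vehicle library and PAM 2, 3 and 4 (0.0361 to 0.116), and for Map3k14 for each vehicle library and PAM 1, 3 and 4 (0.0242 to 0.136). Limma-voom also ended the calls of Ikbkb (adjusted p = 0.0527) and Map3k14 (adjusted p = 0.0763), as did leaving out PAM 3 and PAM 4 together (edgeR, BH adjusted p = 0.121 and 0.266). Map3k14 did not pass with no low-count filter (edgeR, BH adjusted p = 0.0693) or with a filter at a mean of 1 CPM (0.0516) either. Icam1 and Sod2, further NF-kB targets, had log2 fold changes of 0.15 ± 0.23 and -0.07 ± 0.12 and did not pass. Relb and Ptgs2 of the same list pointed lower, at -0.71 ± 0.27 and -0.61 ± 0.27. With all libraries they did not pass either (edgeR, BH adjusted p = 0.0748 and 0.131). Nfkbiz and Map3k7 had the largest log2 fold changes of the genes that did not pass, at 0.81 ± 0.41 and 0.58 ± 0.31 (edgeR, BH adjusted p = 0.178 and 0.209). Of the 19 genes, 12 had a log2 fold change above 0, against 51.9% of all tested genes. At an unadjusted edgeR p under 0.05, 6 genes of the list were higher and 2 lower.

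Among 21 tested genes of the list of AP-1, STAT, IRF and C/EBP factors, 3 rose, all of them AP-1 members, and 18 did not pass. That list also holds Sp1, Socs3, Nfatc1 and Nfatc3, which belong to none of these families. The share called higher over all tested genes was 9.0%. The list's median log2 fold change was 0.31, against 0.02 over all tested genes. Fos went from 60.0 ± 12.4 to 127.2 CPM (log2 fold change 1.09 ± 0.15; edgeR, BH adjusted p = 6.53e-05). Fosl2 and Fosb had log2 fold changes of 0.94 ± 0.28 and 0.64 ± 0.19. Fosl2 no longer passed when vehicle 1, 2 or 3 or PAM 2 or 3 was left out (edgeR, BH adjusted p 0.012 to 0.0783) or with the length trend removed (0.0637). For Fosb, leaving out vehicle 1, vehicle 3 or PAM 3 had that effect (0.016 to 0.0743). The Jun genes, whose products pair with Fos proteins, did not pass in the edgeR fit. Junb had a log2 fold change of -0.12 ± 0.15. Jun, at 0.26 ± 0.10 (edgeR, BH adjusted p = 0.0638), passed with DESeq2 (adjusted p = 0.0278), with upper-quartile scaling, with the length trend removed and without PAM 3 and PAM 4. Ager, the alarmin receptor gene of the cytokine list, had a log2 fold change of 1.29 ± 0.46 (edgeR, BH adjusted p = 0.0548), which was 0.74 without PAM 4. It passed when PAM 2 or PAM 3 was left out (edgeR, BH adjusted p 0.0202 to 0.244 over the 8 fits), with DESeq2 (0.0345), with upper-quartile scaling (0.0493) and with no low-count filter (0.0284).

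Ccl2 mRNA is short-lived, and proteins that bind such messages were listed as well. Of 11 tested genes, Elavl1, which encodes the mRNA-stabilising protein HuR, rose by a log2 fold change of 0.74 ± 0.22 (edgeR, BH adjusted p = 0.0261). Its neuronal relative Elavl3 fell by 0.97 ± 0.19 on the log2 scale (edgeR, BH adjusted p = 0.00163). The other 9 did not pass, where 9.0% of all tested genes were called higher and 9.89% lower. Leaving out vehicle 1, 2 or 4 or PAM 1 or 4 ended the Elavl1 call (edgeR, BH adjusted p 0.0154 to 0.0896), whereas that of Elavl3 was kept in every fit with 1 library left out. Zc3h12a, whose product destroys inflammatory mRNAs, did not pass (log2 fold change 0.31 ± 0.36).

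**Figure D3:**
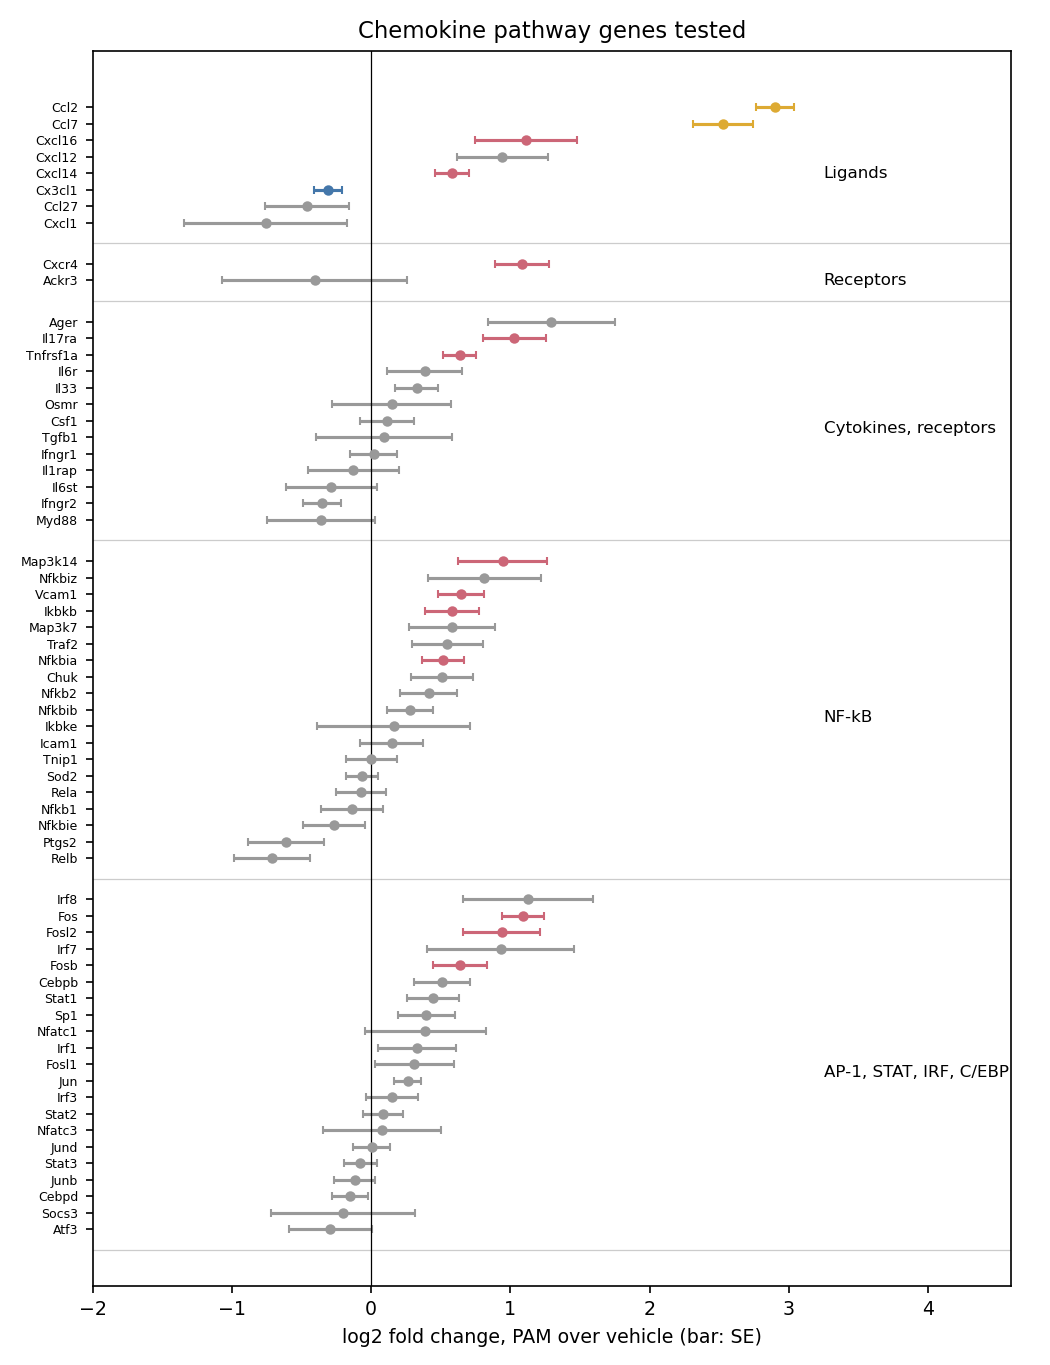
Log2 fold change of PAM over vehicle with its SE for the tested genes of the chemokine ligand, receptor, cytokine, NF-kB and transcription factor lists. Ccl2 and Ccl7 (yellow, not tested) lie at 2.90 and 2.53, genes called higher are red and the gene called lower is blue. Genes that did not pass are grey and run from -0.76 (Cxcl1) to 1.29 (Ager).

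Cell types in the cultures were followed by marker lists. In bulk cultures, fewer cells of a type and less RNA per cell cannot be told apart. Neuronal and astrocyte markers were plentiful, with Slc17a7 at 1234 CPM and Gfap at 2807 CPM in vehicle libraries. The 14 of 20 listed microglial markers that had a symbol were scarce. They summed to 55.3 to 128.4 CPM in vehicle and 38.9 to 62.9 CPM in PAM libraries, with Aif1 at 1 to 8 and Csf1r at 0 to 14 counts per library. Cx3cr1, Itgam, P2ry12, Tmem119, Ptprc and Fcgr1a had no symbol and are not in this sum. Of the 5 tested microglial genes none passed edgeR, DESeq2 or limma-voom (1 was lower at an unadjusted edgeR p under 0.05), and their median log2 fold change was -0.72. That median was -0.25 without vehicle 3, whose microglial sum was the highest and whose Ccl2 level was the lowest of all libraries. Within PAM, the microglial sums of 62.9, 43.7, 54.2 and 38.9 CPM in PAM 1 to 4 followed the order of Ccl7, and PAM 1 and PAM 3 were also the highest for Ccl2. The astrocyte, reactive astrocyte, oligodendrocyte, and pericyte and fibroblast sums had that same order, so it was not particular to microglia. In vehicle 1 to 4 the microglial sums of 58.5, 64.4, 128.4 and 55.3 CPM did not follow Ccl7.

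Markers of several glial types moved in the same direction as the pair. The counts below stand against 9.0% of all tested genes called higher and 9.89% called lower, with a median log2 fold change of 0.02. Of 13 tested astrocyte markers 7 rose and 6 did not pass (median log2 fold change 0.51). The sum of all 14 with a symbol went from 6881 ± 140 to 10632 ± 937 CPM, or 1.55-fold. Gfap, the astrocyte filament gene, had a log2 fold change of 0.72 ± 0.10 (edgeR, BH adjusted p = 7.03e-05). Of 17 tested reactive astrocyte genes 8 rose, Vim and Timp1 among them, and 1 fell, the acute-phase gene Lcn2 (log2 fold change -1.16 ± 0.16; edgeR, BH adjusted p = 8.13e-05). All 8 tested ependymal markers rose. Their summed level was 58.9 to 91.2 CPM in vehicle and 224.0 to 357.5 CPM in PAM libraries, with a 3.45-fold mean. Most of these markers are genes of cilia, and which cells made their transcripts was not tested. Of 10 tested oligodendrocyte markers 7 rose, and the summed CPM of those with a symbol was 1.70-fold. Of 13 tested neuron markers 5 fell, Rbfox3 and Slc17a7 among them, and their summed CPM was 0.77-fold. Kdr, the 1 tested endothelial marker, rose, but not when vehicle 2, vehicle 3 or PAM 2 was left out (edgeR, BH adjusted p 0.0244 to 0.103). Of 8 tested genes listed as pericyte and fibroblast markers, Col1a1 and Col3a1 rose and Pdgfra fell. The summed CPM of those with a symbol was 0.95-fold. Tagln was the largest part of that sum, at 262 of 534.8 CPM on average in vehicle. Pdgfra and Cspg4 also mark oligodendrocyte precursors, so this list does not single out pericytes and fibroblasts. Col3a1 did not pass without PAM 3 and PAM 4 (edgeR, BH adjusted p = 0.167). Leaving out vehicle 1 or 2 or PAM 1 or 3 ended the Pdgfra call (edgeR, BH adjusted p 0.00253 to 0.0938), as did leaving out PAM 3 and PAM 4 together (0.0917).

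Ccl2 was also set against these sums. It was picked for its 7.49-fold difference, and no sum rose by more than the 3.45-fold of ependymal markers. A higher mean ratio with PAM was thus given beforehand, and nothing is read from it. Per 1000 CPM of astrocyte markers the Ccl2 level was 5.17 ± 0.89 CPM (vehicle) and 25.05 ± 1.76 CPM (PAM; SD, n = 4), a 4.84-fold difference. Per 1000 CPM of reactive astrocyte genes the difference was 4.35-fold and per 1000 CPM of oligodendrocyte markers 4.41-fold. It was smallest against ependymal markers, at 2.21-fold, and largest against microglial markers, at 10.1-fold, and neuron markers, at 9.75-fold. The microglial value rests in part on vehicle 3, with a sum of 128.4 CPM against 55.3 to 64.4 CPM in the other vehicle libraries. Per 1000 CPM of microglial markers Ccl2 was at 540 ± 228 CPM in vehicle (SD). The part of these cell types in the difference of the pair was not tested.

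**Figure D4:**
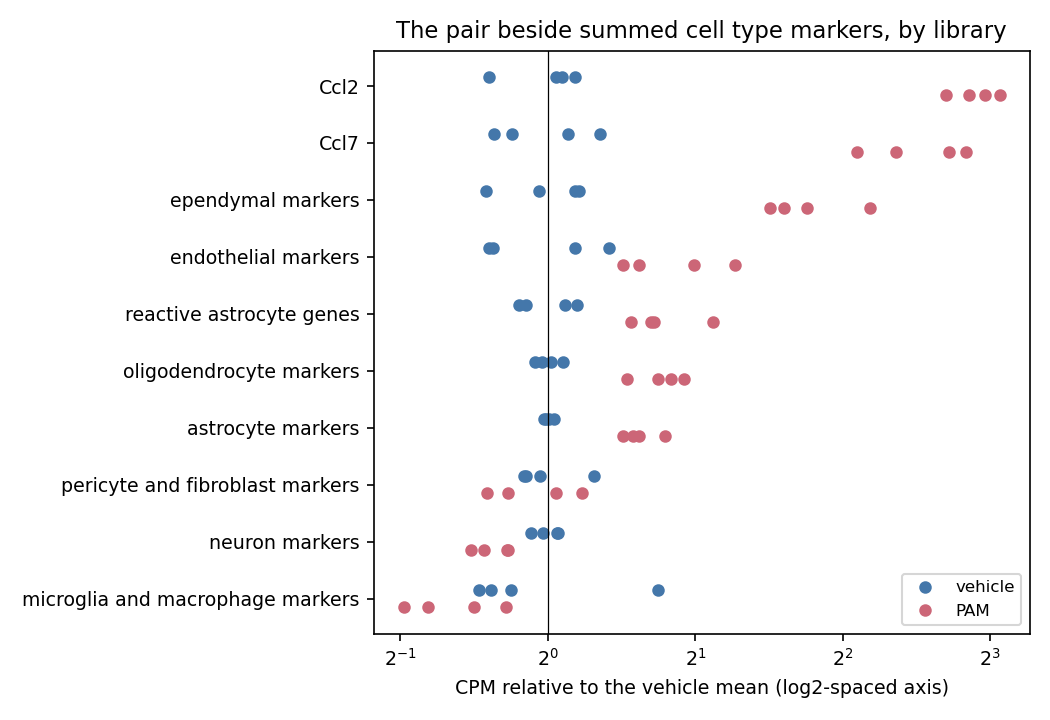
Level in each library relative to the vehicle mean, on a log2-spaced axis, for Ccl2, Ccl7 and the summed CPM of 8 cell type lists, vehicle in blue and PAM in red. The PAM points of Ccl2 and Ccl7 lie right of the vehicle points and overlap each other, the ependymal sum (3.45-fold on average) reaches the lowest Ccl7 point, and the PAM points of the neuron and microglial sums lie to the left of the line. For the microglial sum all vehicle points but vehicle 3 also lie left of the line, and the groups overlap.

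The genes most like the pair over the 8 libraries were chosen among 8860 genes with a symbol and a mean of at least 10 CPM, by the smaller of their Pearson correlations with Ccl2 and with Ccl7 in log2 CPM. They were RGD1561916 (now Spmip6; smaller r 0.99), Pltp, Cd9, RGD1565611 (now Liat1) and Cpt2 (all 0.98). Pltp encodes a phospholipid transfer protein, Cd9 a tetraspanin and Cpt2 a mitochondrial enzyme of fatty acid import. Their log2 fold changes, 1.01 ± 0.18 for Cpt2 to 1.71 ± 0.17 for RGD1561916, were smaller than those of the pair. Since the group difference sets most of this measure, 235 of the 8860 genes exceeded 0.9.

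Other genes around the pair had few counts, with 1 exception. Within 500 kb on either side lay 8 other annotated genes, 7 of them without a symbol in the deposited table. Those 7 summed to 1 count over the 4 vehicle libraries and 14 counts over the 4 PAM libraries, with at most 5 counts of a gene in a library. In RefSeq's order on GRCr8, used for names only, Ccl7 is followed by the chemokine genes Ccl11, Ccl12 and Ccl1 and then by Tmem132e. Tmem132e, a membrane protein gene 312349 bases beyond the pair (chromosome 10, 69737328 to 69794975 on Rnor_6.0), had means of 29.4 ± 5.09 (vehicle) and 19.6 ± 3.15 (PAM) CPM. It fell by 0.59 ± 0.20 on the log2 scale (edgeR, BH adjusted p = 0.0442), opposite in direction to the pair. Leaving out vehicle 1, 2 or 4 or PAM 1, 2 or 3 ended this call (edgeR, BH adjusted p 0.0213 to 0.152), as did upper-quartile scaling (0.0541), no low-count filter (0.0535) and removal of the length trend (0.084).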

How the data were processed

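Per the file headers, each library came as a featureCounts table of raw counts that the authors deposited, keyed by Ensembl identifier and giving exon positions and lengths. The submitters' processing notes name STAR, featureCounts, DESeq2, DESeq and Rnor_6.0 with no versions. Whether counting used strand, and what became of multi-mapped reads, is not stated in the sources used, so values of similar or antisense genes are uncertain. A second deposited table holds the authors' group means (signal values, within 0.175% of counts over median-of-ratios size factors), log2 fold changes and p-values, and it supplied the gene symbols.

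R 4.3.3 and edgeR 4.0.16 were used: filterByExpr, TMM scaling, then glmQLFit (robust) and glmQLFTest with group as the sole term, and Benjamini-Hochberg (BH) adjusted p under 0.05. RPKM is CPM per kilobase of exon. Each SE was computed as the size of the log2 fold change over the square root of the F statistic. In these libraries 3 counts, the limit for a count of 0, equal 0.640 to 1.08 CPM. Replicates were no duplicates (chi-square per degree of freedom 2.77 to 14.8). The scripts were tested on simulated data. Alternatives tried were DESeq2 1.42.0, limma-voom (limma 3.58.1), 2 other scalings, 2 other low-count filters, a replicate block, left-out libraries and a length correction.

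Members and gene lists were chosen with earlier results of these data known. Named genes were all tested chemokine ligands and receptors, up to 4 called genes of each other list by smallest p, annotated genes within 500 kb, the 5 genes most like the pair, and the markers Aif1, Csf1r, Gfap, Pecam1, Rbfox3 and Ptprc, of which Pecam1 and Ptprc had no symbol and are not analysed here. Other genes that did not pass, and Slc17a7, were named after their values were seen.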

Additional observations from a re-analysis of the deposited data

Results flagged for a closer look

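In 120 groups of 4 libraries (the values of the pair and of the named genes), 5 held 1 library far from the other 3, by a test that flags about 1 in 20 groups by chance. None of them was a value of Ccl2 or Ccl7. Cxcl1 was at 7.157 CPM in vehicle 2, against 3.963 to 4.383 CPM in the other vehicle libraries. Cxcr4 was at 35.69 CPM in PAM 4, against 30.12 to 30.92 CPM. Ikbkb was at 17.38 CPM in vehicle 1, against 22.85 to 23.94 CPM. Vim was at 2573 CPM in PAM 1, against 1811 to 1928 CPM. Sod2 was at 72.25 CPM in vehicle 1, against 82.82 to 84.84 CPM.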

How the results depend on the processing

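Over 17 alternatives the log2 fold change ran from 2.74 to 2.97 for Ccl2 and from 2.37 to 2.67 for Ccl7. With 1 library left out it ran from 2.79 to 2.97 and from 2.41 to 2.67, and genes called higher with PAM numbered 713 to 1148 and those called lower 796 to 1269. Calls within lists moved more. With PAM 3 and PAM 4 both left out, 2 ligands were lower, and 4 inducing cytokine genes were higher and 1 lower. In that fit 5 genes of the AP-1, STAT, IRF and C/EBP list were higher and 2 lower. Also, 2 mRNA regulators were higher, and 1 pericyte and fibroblast marker was higher and 0 lower. Ackr3 was then at 0.24. With the length trend removed 0 ligands were lower and 2 mRNA regulators higher, and with no low-count filter 2 regulators were higher and 2 lower. With limma-voom 1 ligand and 2 NF-kB genes were higher. With 1 library left out, 1 to 3 ligands were higher and 0 to 1 lower, 2 to 3 cytokine genes higher and 0 to 1 lower, 1 to 3 NF-kB genes higher and 0 to 1 lower, 1 to 3 AP-1 list genes higher, 0 to 2 regulators higher and 1 to 2 lower, 6 to 10 reactive astrocyte genes higher, 0 to 1 endothelial markers higher and 0 to 1 pericyte and fibroblast markers lower. The cause of these changes was not tested.

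Same-numbered libraries did not deviate together (correlations 0.052, -0.045, 0.068 and -0.060). These values show no pairing by number but cannot exclude one, and the labels do not say what the numbers mark. With the replicate block, genes called higher with PAM numbered 954 and genes called lower 1110, against 1057 and 1161. Ccl2 was then at 2.90 and Ccl7 at 2.52, 3 ligands were higher and 0 lower. In that fit Cxcl12 passed (edgeR, BH adjusted p = 0.0138), and Cx3cl1 (0.0599), Map3k14 (0.0576) and Tmem132e (0.0601) did not. The ligands called higher were also 3 with DESeq2, upper-quartile scaling, no low-count filter, the length trend removed, or PAM 3 and PAM 4 both left out. Upper-quartile scaling raised the share of higher calls from 47.7% to 52.8%. Depth limited Ccl7 in vehicle libraries, with 24 to 42 counts.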
